A study of Homo sapiens with 6 samples.

Results

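Immediate early response genes are the first genes that a cell transcribes after a stimulus. The 10 described here are FOS, FOSB, JUN, JUNB, JUND, EGR1, IER2, NR4A1, DUSP1 and ATF3, of 60675 genes in the deposited count tables. They were chosen by gene symbol, with earlier results of these data in view. DUSP1 and NR4A1 were selected on their values in 1 library, so those values and the knockdown contrast of both genes are given as a description, with no test. All 10 symbols were found, each with 1 Ensembl identifier, and all 10 passed the filter on low counts that left 13275 genes.

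Transcription of these genes needs no new protein synthesis. Kinases of the MAP kinase and cyclic AMP pathways act on factors already bound to their promoters, among them SRF with its ELK partners at CArG boxes and CREB at cyclic AMP response elements, and the resulting mRNAs are mostly short-lived. FOS and JUN proteins pair into AP-1, a transcription factor, while DUSP1 removes phosphate from MAP kinases and so closes the loop. In myeloid cells EGR1 and JUN are known for their part in monocyte differentiation.

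The libraries hold RNA that J2, an antibody to double-stranded RNA, pulled down from OCI-AML2, an established human acute myeloid leukaemia line. In 3 libraries the cells carried a short hairpin RNA to PNPT1, the mitochondrial polynucleotide phosphorylase PNPase, and in the other 3 one to SUPV3L1, the mitochondrial helicase also called SUV3; the 2 proteins work together in mitochondrial RNA decay. Both groups were thus transduced with a knockdown construct, and libraries from control cells or from RNA before precipitation were not analysed here. A level below is therefore the abundance in the precipitated RNA, and a higher level in the cells and a better recovery by the antibody cannot be told apart, nor can more expressing cells and more RNA per cell.

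Assigned counts ran from 5852090 to 11361371 per library, and 16620 to 22393 genes were detected. PNPT1 knockdown replicate 3 was at the low end of both and had a TMM scaling factor of 0.669, against 0.988 to 1.21 in the others. Mitochondrially encoded genes took 11.3% of its counts, against 21.7% to 41.98% in the others. This library therefore stands apart from the rest, and the contrasts of the members and of the gene lists are also given without it. The sample titles carry a number for each library whose meaning no source used here gives. If the numbers name hairpins, the 3 libraries of a knockdown differ in hairpin, and replicate spread and hairpin effects cannot be told apart. The targeted genes were lower on average in their own group: PNPT1 averaged 14.6 ± 6.06 CPM (SD, n = 3) in its knockdown and 28.5 ± 7.49 CPM (SD, n = 3) in the other group, and the groups did not overlap. SUPV3L1 averaged 11.3 ± 1.61 CPM (SD, n = 3) in its knockdown against 18.5 ± 7.16 CPM (SD, n = 3), with overlap. Neither passed the edgeR quasi-likelihood test (adjusted p = 0.898 for both). Of 14 myeloid leukaemia markers, 13 were detected, among them the transcription factor SPI1 at 51.9 to 82.4 CPM and the surface receptor CD33 at 28.2 to 59.2 CPM, while CD34 had 0 counts in the 6 libraries. Detected means any count in any library, and 11 of the 14 passed the filter on low counts. Some were low: KIT had 0 to 5 counts per library and MPO 0.822 to 7.07 CPM. Lymphoid markers summed to 1.73 to 6.70 CPM, erythroid and megakaryocyte markers to 0 to 2.38 CPM and fibroblast and epithelial markers to 0 to 1.29 CPM. HBB, COL1A2, EPCAM, CD2 and MS4A1 had 0 counts.

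The promoters of 4 members are shown: DUSP1 and NR4A1, which were highest in the same library, EGR1, which was highest in another, and JUND, which was 2-fold higher in neither. Each is the 250 bases before the RefSeq start on GRCh38.p14, read 5′ to 3′ on the strand of the gene, with the cyclic AMP response element half-site TGACG on either strand and the CArG box in capitals. DUSP1 is chr5:172771196-172771445 on the minus strand, JUND is chr19:18281623-18281872 on the minus strand, EGR1 is chr5:138465229-138465478 on the plus strand and NR4A1 is chr12:52022582-52022831 on the plus strand, the upstream one of the 2 starts that RefSeq gives for it.
DUSP1: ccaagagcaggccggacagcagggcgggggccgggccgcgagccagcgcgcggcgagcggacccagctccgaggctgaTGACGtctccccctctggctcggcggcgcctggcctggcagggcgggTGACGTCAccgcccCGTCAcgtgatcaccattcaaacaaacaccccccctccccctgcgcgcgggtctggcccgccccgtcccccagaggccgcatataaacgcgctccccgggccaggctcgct
JUND: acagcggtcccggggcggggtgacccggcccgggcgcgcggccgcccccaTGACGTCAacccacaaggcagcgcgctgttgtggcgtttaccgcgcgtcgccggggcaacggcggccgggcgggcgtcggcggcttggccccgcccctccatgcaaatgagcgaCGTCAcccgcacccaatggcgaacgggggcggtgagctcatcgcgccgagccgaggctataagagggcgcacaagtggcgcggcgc
EGR1: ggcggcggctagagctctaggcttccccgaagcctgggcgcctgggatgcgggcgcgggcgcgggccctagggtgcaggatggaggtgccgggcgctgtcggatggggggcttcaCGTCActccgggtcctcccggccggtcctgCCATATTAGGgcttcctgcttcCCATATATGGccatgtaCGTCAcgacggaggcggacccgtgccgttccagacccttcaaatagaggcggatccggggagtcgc
NR4A1: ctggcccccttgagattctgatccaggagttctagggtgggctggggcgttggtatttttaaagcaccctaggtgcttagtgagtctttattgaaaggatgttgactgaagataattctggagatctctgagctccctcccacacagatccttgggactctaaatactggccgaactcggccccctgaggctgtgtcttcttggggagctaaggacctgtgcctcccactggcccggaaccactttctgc

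The DUSP1 and JUND windows hold the full element TGACGTCA, which 1.65% of 35116 RefSeq promoter windows of the same length hold on either strand. The half-site TGACG, which is part of the full element, was found in 8 of the 10 members (21.2% of all windows), all but NR4A1 and ATF3. EGR1 alone among the members had a CArG box in this window, in 2 copies, 105 and 83 bases before the start (1.16% of all windows). The AP-1 site TGACTCA was in 0 of 10 (4.20% of all windows), the GC box GGGCGG in 8 of 10 (42.6%) and TATAAA in 5 of 10 (6.80%). RefSeq gives NR4A1 and ATF3 2 starts each, and a member was counted where either window held the match, while the shares of all windows count each window. The GC box of NR4A1 and the TATAAA of ATF3 lay only at the downstream start. These matches describe letters in short windows; sites farther away were not searched.

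DUSP1, the MAP kinase phosphatase, had 12, 16 and 354 counts in PNPT1 knockdown replicates 1 to 3 and 53, 11 and 37 counts in SUPV3L1 knockdown replicates 1 to 3. Scaled to depth these were 1.19, 1.40 and 90.6 CPM against 4.36, 1.04 and 4.01 CPM. PNPT1 knockdown replicate 3 thus held 20.8-fold more than the next highest library and 64.8-fold more than the median of the other 5. Its exact Poisson 95% interval, which covers counting error only, ran from 81.4 to 101 CPM, and the highest bound elsewhere was 5.70 CPM. DUSP1 lies on GRCh38 chromosome 5 from 172768090 to 172771195 on the minus strand, within 3.11 kb, and the gene AC022217.3 overlaps it on the opposite strand. No source used here gives the strand setting of the counting, so reads from such partners cannot be told apart from those of the gene.

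NR4A1, an orphan nuclear receptor also called NUR77, was highest in the same library. It had 9, 19 and 195 counts in the PNPT1 knockdown and 22, 7 and 22 in the SUPV3L1 knockdown, or 0.896, 1.66 and 49.9 CPM against 1.81, 0.660 and 2.38 CPM. PNPT1 knockdown replicate 3 was 20.9-fold above the next highest and 30.1-fold above the median of the other 5. The NR4A1 locus on chromosome 12 (52022832 to 52059507, plus strand) spans 36.7 kb and shares its opposite strand with AC025259.3.

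Among the AP-1 subunits, FOS was high in 2 libraries, 1 of each knockdown. FOS had 4.58, 4.28 and 31.0 CPM in the PNPT1 knockdown and 30.2, 2.55 and 5.96 CPM in the SUPV3L1 knockdown, from 27 to 367 counts. The 2 high libraries, PNPT1 knockdown replicate 3 and SUPV3L1 knockdown replicate 1, differed by 1.03-fold, and their Poisson intervals, 25.7 to 37.0 and 27.2 to 33.4 CPM, overlapped. FOS (chromosome 14, 75278774 to 75282230) lies on the plus strand with no overlapping gene in GENCODE 29.

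JUN, the usual partner of FOS, was high in PNPT1 knockdown replicate 3. Its levels were 5.57, 5.94 and 76.5 CPM against 15.8, 5.85 and 9.42 CPM, so that library stood 12.9-fold above the median of the others. SUPV3L1 knockdown replicate 1 ranked next for JUN, a gene of 1 exon on chromosome 1 (58780788 to 58784327, minus strand). FOSB, a FOS relative, followed the same pattern at lower counts, with 7, 4 and 35 counts in the PNPT1 knockdown and 21, 6 and 14 in the SUPV3L1 knockdown. On the CPM scale FOSB had 0.697, 0.349 and 8.96 against 1.73, 0.566 and 1.52, again 12.9-fold above the median of the others in PNPT1 knockdown replicate 3. FOSB on chromosome 19 (45467995 to 45475179, plus strand) overlaps ERCC1 on the opposite strand.

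JUNB and JUND, the other JUN proteins, varied less. JUNB had 18.8, 24.5 and 56.0 CPM in the PNPT1 knockdown and 62.6, 25.5 and 23.9 CPM in the SUPV3L1 knockdown, so the same pair of libraries as for FOS was high. JUND, which many cells make without a stimulus, had 12.8, 32.9 and 31.2 CPM against 20.6, 37.9 and 12.6 CPM. SUPV3L1 knockdown replicate 2 was the highest library for JUND, and PNPT1 knockdown replicate 3 did not stand apart. The single-exon JUNB lies at 12791496 to 12793315 on the plus strand of chromosome 19, opposite HOOK2, and JUND at 18279760 to 18281622 on the minus strand of that chromosome.

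EGR1, a zinc finger transcription factor, had a pattern of its own. Its levels were 1.09, 12.2 and 3.84 CPM in the PNPT1 knockdown and 58.2, 4.53 and 5.52 CPM in the SUPV3L1 knockdown, from 11, 140, 15, 708, 48 and 51 counts. SUPV3L1 knockdown replicate 1 was thus 12.9-fold above the median of the others, whereas PNPT1 knockdown replicate 3 was at 0.695 times the median of the others. EGR1 lies on chromosome 5 from 138465490 to 138469315 on the plus strand, with no overlapping gene.

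ATF3, a stress-induced factor that pairs with JUN proteins, had 2.89, 2.79 and 24.6 CPM against 7.73, 2.83 and 4.44 CPM, and was 8.51-fold above the median of the others in PNPT1 knockdown replicate 3. It spans 55.4 kb of chromosome 1 (212565334 to 212620777, plus strand). IER2, a short nuclear protein of the early response, had 25.3, 29.3 and 68.3 CPM against 39.6, 29.05 and 19.7 CPM. The same library was its highest, at 2.35-fold above the median of the others, which is a smaller step than for ATF3. IER2 lies on chromosome 19 from 13150415 to 13154908 on the plus strand, opposite AC011446.2.

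**Figure D1:**
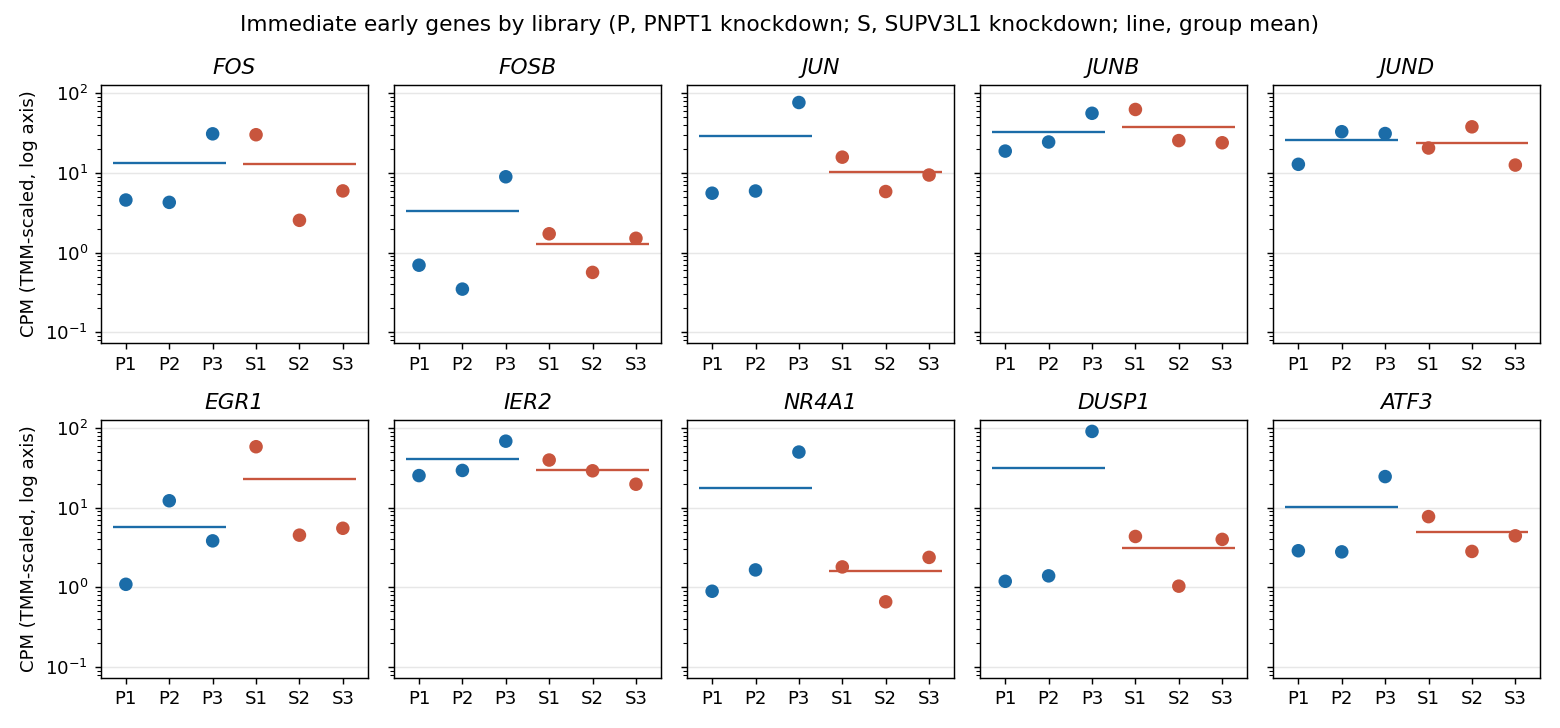
Level of each immediate early gene in CPM after TMM scaling (log axis) in PNPT1 knockdown replicates 1 to 3 (P1 to P3) and SUPV3L1 knockdown replicates 1 to 3 (S1 to S3); points are libraries and lines are group means of 3. P3 was the highest library for 7 of the 10 genes, S1 for JUNB and EGR1, and S2 for JUND.

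The deposited FPKM values, which are scaled to gene length, allow levels to be compared between genes. The median over the 6 libraries was highest for JUNB at 11.6 FPKM (range 9.41 to 27.4), followed by JUND at 8.86 (5.23 to 18.1) and IER2 at 7.87 (4.82 to 11.0). JUN at 1.76 FPKM (1.36 to 11.0), FOS at 1.32 (0.630 to 7.30) and EGR1 at 1.1398 (0.352 to 14.1) came next. DUSP1 at 0.973 FPKM (0.445 to 17.4), ATF3 at 0.681 (0.507 to 2.48), NR4A1 at 0.169 (0.0347 to 2.96) and FOSB at 0.153 (0.0466 to 0.712) were the lowest. The ranges of every pair of neighbours in this order overlapped, so the order of neighbours is not fixed by these libraries. In the library where it was high, DUSP1 reached 17.4 FPKM, above JUNB at 15.1 FPKM there and inside the range of JUNB over the 6 libraries.

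To compare members across libraries, the log2 distance of a library was taken as its log2(CPM + 0.5) minus the median of the other 5. In PNPT1 knockdown replicate 3 the distance was 5.59 for DUSP1, 4.54 for NR4A1, 3.58 for JUN, 2.98 for FOSB, 2.89 for ATF3 and 2.63 for FOS. It was 1.22 for IER2, 1.18 for JUNB, 0.59 for JUND and -0.47 for EGR1. Thus 8 of 10 members were at least 2-fold higher in this library, where 14.4% of all genes tested were, and 0 of 10 were at least 2-fold lower, where 23.8% were. DUSP1 and NR4A1 are among these 8 and were selected on this library, and the list was drawn up with its values in view, so the count is a description. The library was the highest of the 6 for 7 members and for 30.6% of all genes tested. The members' median distance was 2.76, against -0.12 for all genes tested. Under plain library sizes and on FPKM, 6 of 10 members were at least 2-fold higher, and JUNB and IER2 no longer were. The median of all genes tested was then -0.76 and -0.84, and the share of all genes at least 2-fold higher was not computed for these scalings. With the median of all genes taken off, 9 of 10 members stayed above it and 8 at least 2-fold above it under each of 5 scalings tried; EGR1 was below it in each, and the unadjusted sign for JUND turned under plain library sizes (-0.08) and FPKM (-0.14).

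The length of the gene moved with the distance in the same library. Of 1966 tested protein-coding genes that span up to 10 kb, 27.0% were at least 2-fold higher in PNPT1 knockdown replicate 3, against 14.3% of 4972 genes that span 10 to 50 kb and 7.42% of 4015 longer genes. Of the members, 8 span up to 10 kb, and 6 of those were at least 2-fold higher; the others were NR4A1 and ATF3. The same library had the highest share of alignments that were not unique, 80.1%, against 65.7% to 71.6% elsewhere, and the lowest share assigned to genes, 7.06%, against 11.96% to 16.04%. The part of gene length and of these library properties, the mitochondrial share included, in the members' values was not tested.

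SUPV3L1 knockdown replicate 1 was the second library in which members were high together. Its log2 distance was 3.55 for EGR1, 2.59 for FOS, 1.36 for DUSP1, 1.34 for JUN, 1.34 for JUNB and 1.28 for ATF3, so 6 of 10 were at least 2-fold higher, where 4.56% of all genes tested were. FOSB at 0.90, IER2 at 0.44, NR4A1 at 0.10 and JUND at -0.59 were not. The distance for JUND turned to 0.08 under plain library sizes and 0.14 under FPKM. On FPKM, 5 of 10 members were at least 2-fold higher, and 5 of 10 against the other 2 libraries of the group. The share of all genes was not computed for either of these settings. The median over the members was 1.31, against 0.01 for all genes tested, and in this library the share at least 2-fold higher was 5.80% among protein-coding genes spanning up to 10 kb. In the other 4 libraries the members' median distance ran from -0.72 to 0.38.

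**Figure D2:**
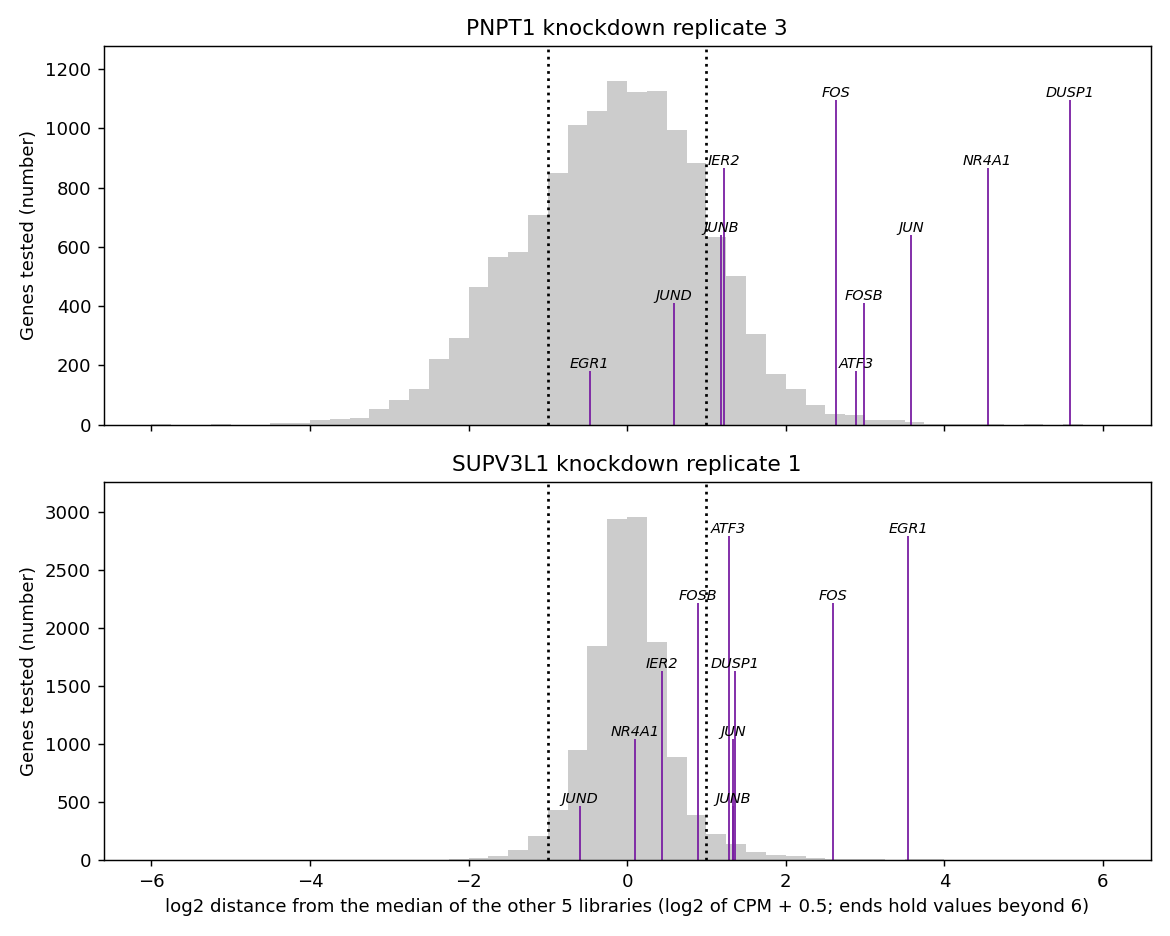
Histogram of the log2 distance from the median of the other 5 libraries over 13275 genes tested (grey), with each immediate early gene as a vertical line, in the 2 libraries where members were high; line heights only separate the labels and dotted lines mark 2-fold. DUSP1 (5.59) and NR4A1 (4.54) lie farthest out in the upper panel and EGR1 (3.55) and FOS (2.59) in the lower.

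The contrast of the study, SUPV3L1 knockdown against PNPT1 knockdown, asks whether loss of either protein changes the precipitated RNA differently. No immediate early gene passed the edgeR quasi-likelihood test, and the groups overlapped for 10 of 10 members. Across all genes tested, 0 (0%) had a Benjamini-Hochberg adjusted p under 0.05, 543 had an unadjusted p under 0.05 (226 higher and 317 lower in the SUPV3L1 knockdown) and the groups did not overlap for 8.56%. DESeq2 called 19 genes, none of them a member, and gave no adjusted p for DUSP1 and NR4A1. None of the other 8 members reached an unadjusted p of 0.05 in the main edgeR fit of all 6 libraries. EGR1 and JUN did so in some edgeR fits, without the filter on low counts or with 1 library left out.

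EGR1 had the largest positive estimate, a log2 fold change of 1.96 ± 1.03 (SE; edgeR adjusted p = 0.898) in SUPV3L1 over PNPT1 knockdown. Its group means were 22.8 ± 30.7 CPM (SD, n = 3) and 5.72 ± 5.80 CPM (SD, n = 3), so the SD of the higher group exceeded its mean. JUN had -1.47 ± 0.90 (SE; edgeR adjusted p = 0.898), from 10.4 ± 5.03 CPM (SD, n = 3) against 29.3 ± 40.9 CPM (SD, n = 3). Here too the larger mean came with an SD above it. FOS had 0.01 ± 0.93 and JUNB 0.19 ± 0.50 (SE; edgeR adjusted p = 0.998 and 0.957), JUND -0.11 ± 0.48 and IER2 -0.47 ± 0.44 (0.971 and 0.899), and FOSB -1.26 ± 1.08 and ATF3 -0.96 ± 0.82 (0.898 for both). The values of DUSP1, -3.27 ± 1.39, and NR4A1, -3.39 ± 1.29, follow from the library on which they were selected. The members' median was -0.71 with 3 of 10 above 0, beside a median of 0.01 and 50.7% above 0 for all genes tested.

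Leaving out 1 library turned the direction of most members. Without PNPT1 knockdown replicate 3, all 10 estimates were above 0 with a median of 0.83, and DUSP1 had 1.26 ± 0.70 (SE) and NR4A1 0.32 ± 0.69 (SE). Without SUPV3L1 knockdown replicate 1, 0 of 10 were above 0 with a median of -1.51, and EGR1 had -0.21 and FOS -1.62. With both left out, a choice made after the data were seen, 9 members could be tested, 6 were above 0 and the median was 0.18. No member passed the edgeR test in any of these 3 fits. Without the filter on low counts, edgeR called 187 of 28015 genes tested and 3 of the members, namely DUSP1, NR4A1 and EGR1. The log2 fold change of EGR1 was then 1.99 ± 0.46 (SE; edgeR adjusted p = 0.00396), where the SE with the filter was 1.03. DUSP1 and NR4A1 were selected on their values in PNPT1 knockdown replicate 3, so their calls are a description and no test.

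**Figure D3:**
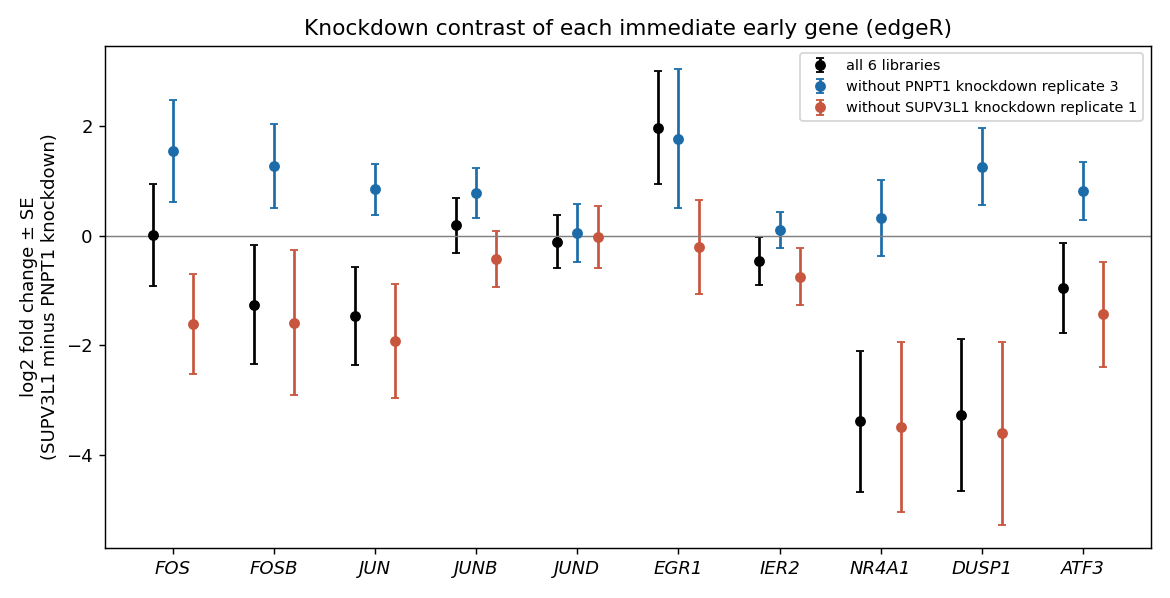
edgeR log2 fold change of SUPV3L1 minus PNPT1 knockdown for each immediate early gene, with bars of 1 SE, for all 6 libraries (black), without PNPT1 knockdown replicate 3 (blue) and without SUPV3L1 knockdown replicate 1 (red). All 10 blue points lie above 0 and all 10 red points lie below it.

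Other immediate early transcription factors followed the members in part. Of 20 listed, 15 were tested and 0 called in the contrast, with 1 higher and 1 lower at an unadjusted p under 0.05. Without PNPT1 knockdown replicate 3 both of these counts were 0, and the list's median log2 fold change was 0.23 in place of -0.33. In PNPT1 knockdown replicate 3, 9 of the 15 were at least 2-fold higher and 1 lower (14.4% and 23.8% of all genes tested). In SUPV3L1 knockdown replicate 1, 2 were higher (4.56% of all genes tested). NR4A2, the sister receptor of NR4A1, had 1.69, 1.31 and 25.6 CPM in the PNPT1 knockdown and 1.81, 1.32 and 3.14 CPM in the SUPV3L1 knockdown, so it was high in the same library as NR4A1. The zinc finger factor KLF6 had 23.1, 7.25 and 75.2 CPM against 15.5, 6.88 and 18.2 CPM, and IER5, a relative of IER2, 10.4, 12.7 and 67.3 CPM against 13.3, 10.7 and 6.50 CPM. KLF10 reached 84.2 CPM in that library and 12.9 to 38.01 CPM elsewhere. SRF, which binds the CArG box and is itself an early gene, had 57.8 CPM there and 19.9 to 42.9 CPM elsewhere. FOSL2, a FOS relative, did not follow: it had 15.1, 20.4 and 15.9 CPM against 36.3, 24.4 and 25.3 CPM.

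Early genes that encode feedback and effector proteins were high in both libraries, in partly shared sets. Of 33 listed, 24 were tested and 0 called in the contrast (4 higher and 2 lower at an unadjusted p under 0.05; 2 and 0 of 25 without PNPT1 knockdown replicate 3). In PNPT1 knockdown replicate 3, 12 were at least 2-fold higher and 5 lower (14.4% and 23.8% of all genes tested). In SUPV3L1 knockdown replicate 1, 14 were higher and 1 lower (4.56% and 2.76% of all genes tested). In both, 5 were at least 2-fold higher, IER3, BTG1, PLK2, SGK1 and CXCL8. GADD45B, a stress sensor upstream of p38, had 10.6, 4.89 and 131 CPM in the PNPT1 knockdown and 7.32, 4.90 and 6.28 CPM in the SUPV3L1 knockdown. PPP1R15A, the stress-induced subunit that brings a phosphatase to the initiation factor eIF2, had 42.7, 13.6 and 290.5 CPM against 30.8, 13.2 and 41.8 CPM. Both were high in the same library as DUSP1. Without it, their log2 fold changes between the knockdowns were -0.33 ± 0.45 for GADD45B and 0.01 ± 0.58 for PPP1R15A (SE), against -2.96 ± 1.00 and -2.01 ± 0.90 with it. The cytokine genes CXCL8 and TNF were highest in the library where EGR1 was: CXCL8 had 4.48, 4.72 and 18.2 CPM against 119.3, 6.32 and 31.4 CPM, and TNF 3.68, 11.4 and 4.35 CPM against 52.4, 13.1 and 9.75 CPM. MCL1, an anti-apoptotic protein with a short-lived mRNA, ranged from 86.5 to 163 CPM, and BTG1, an antiproliferative factor, from 40.8 to 117 CPM.

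Most kinases and nuclear factors that switch these genes on stayed within 2-fold of the other libraries in the 2 libraries where members were high, 25 of 27 in PNPT1 knockdown replicate 3 and 27 of 27 in SUPV3L1 knockdown replicate 1. All 27 listed were tested, 0 were called and 0 had an unadjusted p under 0.05. None was at least 2-fold higher in either library, and 2, ELK3 and MKL2, were at least 2-fold lower in PNPT1 knockdown replicate 3. SRF was not among the 27, because it was listed with the other early transcription factors. Its log2 distance was 1.17 in PNPT1 knockdown replicate 3, more than 2-fold higher, and -0.56 in SUPV3L1 knockdown replicate 1. The absence of higher genes therefore depends on how the list was drawn. Of all genes tested, 14.4% were at least 2-fold higher and 23.8% lower in PNPT1 knockdown replicate 3. In SUPV3L1 knockdown replicate 1 these shares were 4.56% and 2.76%. In PNPT1 knockdown replicate 3, MKL2, a co-activator of SRF, had 2.303 CPM, against 23.5 to 26.8 CPM elsewhere. ELK3, a ternary complex factor, had 2.56 CPM in that library and 10.2 to 13.3 CPM elsewhere. MAPK14, the p38 kinase, ranged from 85.5 to 152 CPM and EP300, a co-activator, from 109 to 150 CPM. The median log2 distance of the 27 was 0.05 in PNPT1 knockdown replicate 3 and 0.04 in SUPV3L1 knockdown replicate 1. ELK1, a relative of ELK3, ranged from 9.46 to 15.1 CPM.

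**Figure D4:**
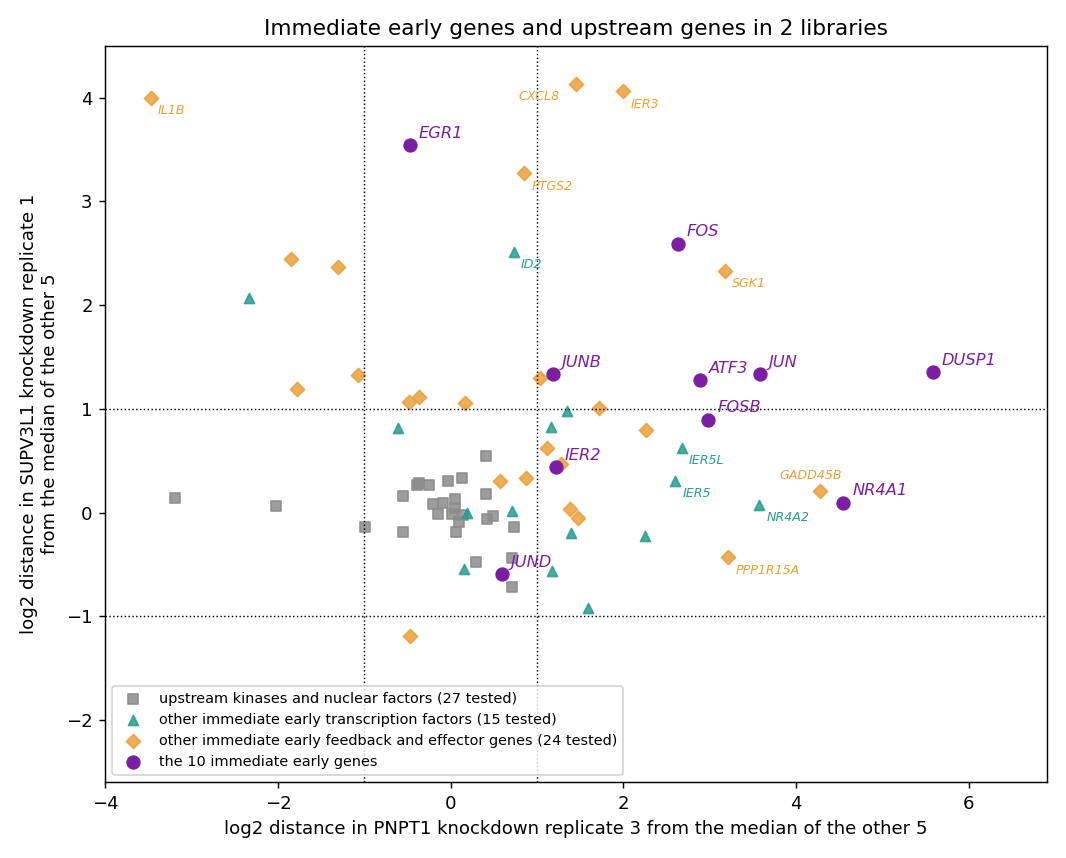
log2 distance of each gene in PNPT1 knockdown replicate 3 (horizontal) and in SUPV3L1 knockdown replicate 1 (vertical), each from the median of the other 5 libraries, for the 10 immediate early genes and 3 lists; dotted lines mark 2-fold. The upstream kinases and nuclear factors lie within 2-fold but for 2 that were lower in the first library, while DUSP1 and NR4A1 lie far right and EGR1 far up. SRF is drawn with the other immediate early transcription factors, at 1.17 in the first library.

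The bZIP factors, the leucine zipper family, hold further partners of AP-1. Of 22 listed, 20 were tested and 0 called (1 higher at an unadjusted p under 0.05, FOSL2). In PNPT1 knockdown replicate 3, 3 were at least 2-fold higher and 2 lower, where 14.4% and 23.8% of all genes tested were. In SUPV3L1 knockdown replicate 1, 2 were higher and 1 lower, where 4.56% and 2.76% of all genes tested were. Without PNPT1 knockdown replicate 3, 21 were tested and 1, CREB5, was higher at an unadjusted p under 0.05. ATF4, the main factor of the integrated stress response, had 184, 231 and 429 CPM in the PNPT1 knockdown and 174, 138 and 183 CPM in the SUPV3L1 knockdown. ATF5 was highest in a library where DUSP1 was low, with 26.7, 244 and 44.5 CPM against 44.1, 57.1 and 157 CPM, and ATF2 ranged from 52.6 to 76.3 CPM. Of 14 factors that act on AU-rich mRNAs, 14 were tested, 0 called and 1 had an unadjusted p under 0.05. That was TIAL1, which binds such mRNAs, at 117, 72.1 and 193 CPM against 65.9, 59.4 and 74.2 CPM. Without PNPT1 knockdown replicate 3 its unadjusted edgeR p was 0.108, and none of the 14 was under 0.05. It and another 3, ZFP36 among them, were at least 2-fold higher in PNPT1 knockdown replicate 3, where 14.4% of all genes tested were.

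The genes whose levels correlated best with those of DUSP1 and NR4A1 came from outside the lists of early genes. Over the 6 libraries, Pearson's r of log2 CPM was computed among genes tested with a mean of at least 50 counts, 9736 for DUSP1. The 5 highest were USMG5 (r = 0.9996), TCEB2 (0.997), SCARNA6 (0.997), SF3B6 (0.997) and AZIN1 (0.996), which are a subunit of ATP synthase, elongin B, a small Cajal body RNA, a splicing factor and an antizyme inhibitor. USMG5 had 22.1, 22.5 and 135.1 CPM in the PNPT1 knockdown and 36.8, 20.9 and 34.0 CPM in the SUPV3L1 knockdown, a smaller range than DUSP1 in the same order. For NR4A1 they were ZNF669 (0.997), TMEM126A (0.996), SDHAF3 (0.995), MRPL22 (0.994) and PSMA1 (0.993). The size of a change does not enter r: ZNF669 ranged from 8.49 to 13.6 CPM and NR4A1 from 0.660 to 49.9 CPM. Without PNPT1 knockdown replicate 3, r ran from 0.962 to 0.997 for the 5 genes named with DUSP1 and from 0.887 to 0.949 for those named with NR4A1. Among the members, r with DUSP1 was 0.988 for JUN, 0.983 for NR4A1, 0.983 for FOSB and 0.977 for ATF3, then 0.815 for IER2, 0.789 for FOS, 0.708 for JUNB and 0.17 for JUND, and it was near 0 for EGR1 (-3.27e-05). With 6 points that share libraries and 1 of them far from the rest, these values are descriptions; without PNPT1 knockdown replicate 3, r with DUSP1 was 0.922 for JUN, 0.919 for FOSB, 0.902 for ATF3, 0.833 for NR4A1, 0.795 for FOS, 0.657 for JUNB, 0.63 for EGR1, 0.06 for IER2 and -0.47 for JUND.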

How the data were processed

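RNA precipitated with the J2 antibody was sequenced in 6 libraries, 3 per knockdown, after a directional preparation, per the labels' protocols. The submitters' processing notes name HTSeq, StringTie 2.1.4, SAMtools 1.14, HISAT2 2.2.1 and the GRCh38 genome. No source used here gives the HTSeq version, its strand setting or the annotation. The authors deposited whole-number read counts per gene and a table of FPKM, fragments scaled to gene length and depth. Reads with several positions gave no counts, so genes with close copies can be low.

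Groups came from the genotype labels. Replicates were numbered in accession order and pair nothing. No source used here ties libraries to hairpins or cultures, so p-values measure only the spread between these libraries, which may include hairpin differences.

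The main test of counts was that of edgeR 4.0.16 under R 4.3.3 (quasi-likelihood test, TMM scaling, default filter with a minimum count of 10, Benjamini-Hochberg adjustment over all genes tested, threshold 0.05), after a test on simulated data. The simulated counts had the same dispersion for every gene and no library that stood apart. That test therefore does not show what the main test could find in these libraries. CPM is the count scaled to the TMM-adjusted library size. DESeq2 1.42.0, limma 3.58.1 on log2(FPKM + 0.1) or log2(FPKM + 1), other scalings and filters and left-out libraries were alternatives. Positions are from GENCODE 29, and promoters were matched by symbol to RefSeq for 10 of 10 members.

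The members and gene lists were chosen with earlier results of these data known. The text names the members, the 2 targeted genes, of each other list the 3 genes with the highest mean CPM and the 3 with the smallest p, and the 5 genes most like DUSP1 and NR4A1. Other genes named, among them SPI1, CD33, markers at 0, ELK3, MKL2, ZFP36 and most genes of the closing section, were chosen after their values were seen. Some genes that this rule names are not reported here.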

Additional observations from a re-analysis of the deposited data

How the results depend on the processing

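No paired analysis was possible because the labels give no replicate numbers or pairing. The count of genes called was 0 with edgeR, 187 without the filter on low counts, 19 with DESeq2, and 0 to 1 with any 1 library left out; the cause was not tested. The members' median log2 distance in PNPT1 knockdown replicate 3 was 1.79 on FPKM and 1.95 under plain library sizes, in place of 2.76. The other alternatives gave 2.79 to 2.81. Only the FPKM value moved by more than 0.895, the SD of the members' median level over the other 5 libraries. Of 149 alternative values of the members' log2 fold changes, 117 kept direction and side of the threshold, 29 turned direction and 3 passed it. The 117 include DUSP1 and NR4A1 with DESeq2, which gave them no adjusted p. The 3 were EGR1 and the selected DUSP1 and NR4A1, all without the filter on low counts. Leaving out each library in turn gave ranges of -1.62 to 1.54 for FOS, -1.85 to 1.27 for FOSB, -1.98 to 0.84 for JUN, -0.42 to 0.78 for JUNB, -0.63 to 0.19 for JUND, -0.21 to 3.33 for EGR1, -0.75 to 0.10 for IER2, -3.97 to 0.32 for NR4A1, -3.86 to 1.26 for DUSP1 and -1.44 to 0.81 for ATF3. FOS, near 0, turned to -0.0396 with RLE factors, -0.0445 with DESeq2, -0.00861 with limma on log2(FPKM + 0.1) with and without a filter, and -0.0055 without mitochondrial genes. JUND turned to 0.0423 with plain library sizes and 0.00624 with limma on log2(FPKM + 1). With both PNPT1 knockdown replicate 3 and SUPV3L1 knockdown replicate 1 left out, chosen after seeing the data, the values that turned were FOS -0.0709, JUN 0.40, JUND 0.14, EGR1 -0.41, NR4A1 0.23, DUSP1 0.94 and ATF3 0.34, and FOSB was not tested. FOSB, DUSP1 and NR4A1 rest on 4 to 53 counts in each library other than PNPT1 knockdown replicate 3, where counting error is largest.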

Other observations

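SUPV3L1 knockdown replicate 1, the library with the most EGR1, also held more RNA of several genes known from monocytes and inflammation, which were chosen after their values were seen. They do not stand for the myeloid markers as a list. Of these, 3 of 11 tested were at least 2-fold higher there (4.56% of all genes tested). SPI1, CD33, CEBPA and FLT3 had log2 distances of 0.17, 0.31, -0.52 and -0.69. CD14, a monocyte receptor, had 822 counts there and 3 to 16 in the other 5 libraries, too few for the filter of the test. IL1B, an inflammatory cytokine, had 66.3 CPM there and 0.256 to 8.73 CPM elsewhere. PTGS2, the inducible cyclooxygenase, had 25.4 CPM against 0.995 to 5.96 CPM, and IER3, an early gene, 71.0 CPM against 0.660 to 16.6 CPM. LYZ, lysozyme, did not mark this library alone, with 36.6, 180.1 and 144 CPM in the PNPT1 knockdown and 1493, 344 and 1331 CPM in the SUPV3L1 knockdown; its groups did not overlap, and its edgeR adjusted p was 0.898. In PNPT1 knockdown replicate 3, 3 of the 11 myeloid markers tested were at least 2-fold higher and 3 lower (14.4% and 23.8% of all genes tested). CSF1R, the macrophage growth factor receptor, had 0 counts in that library. MEIS1 had 219 CPM there against 42.3 to 95.7 CPM elsewhere, and HOXA9, its partner in leukaemia, 77.8 CPM against 6.55 to 15.1 CPM. The knockdown groups did not overlap for CSF1R, higher in the SUPV3L1 knockdown, or for MEIS1, lower there (edgeR adjusted p = 0.898 for both). Whether these genes and the immediate early genes share a source in either library was not tested.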
